A study of Mus musculus with 6 samples.

Results

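The Slc2a genes encode the GLUT proteins, the membrane carriers through which sugars enter cells by facilitated diffusion. Of the 55487 gene identifiers in the deposited count table, 10 were taken by symbol as the family: Slc2a1, Slc2a3, Slc2a4, Slc2a5, Slc2a6, Slc2a8, Slc2a9, Slc2a10, Slc2a12 and Slc2a13. All 10 were found and all passed the filter on low counts. Slc2a2 and Slc2a7, the other mouse genes with the same stem, are given beside them and are not counted as members. Whole testes of mice at postnatal day 19 were sequenced as polyadenylated RNA, with 3 libraries labelled control and 3 labelled dsfb. Per the title of the series, the dsfb animals carry the SFB allele of both Hormad1 and Hormad2, genes of the meiotic chromosome axis. The labels give no strain and no further genotype of the control animals, and the design text says that separate mice were used, so n = 3 in each group counts animals.

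In the testis, Sertoli cells take up glucose and pass lactate on to the spermatocytes and spermatids that lie behind the blood-testis barrier. Germ cells themselves carry GLUT proteins, and developing sperm rely on sugars that they take up. The family splits into carriers of the cell surface that move glucose (GLUT1, GLUT3 and GLUT4), a fructose carrier (GLUT5), a urate carrier (GLUT9), a carrier of myo-inositol (the product of Slc2a13) and members held largely inside the cell (GLUT6 and GLUT8).

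The control libraries held 23983373 to 27707291 counted reads and the dsfb libraries 15335130 to 17306363. Levels are given as CPM, reads of a gene relative to the TMM-scaled size of its library, a scaling that sets the bulk of genes equal between libraries. Hormad1 was at 209 to 486 CPM in control and 217 to 246 CPM in dsfb (edgeR adjusted p = 0.0597, and 1.57e-10 without control replicate 3), and Hormad2 was at 42.9 to 60.0 CPM in control and 25.1 to 28.7 CPM in dsfb. Whether either allele lowers its transcript is not stated in the labels, and the genotype was not checked by these levels. Control replicate 3 stood apart from the other controls. The median of 13 tested spermatid markers lay 2.98 log2 units above the mean of control replicates 1 and 2 there, and the same difference was -0.95 for 10 markers of leptotene to early pachytene cells. Of 19826 genes tested 66.9% passed (edgeR adjusted p under 0.05), 30.7% as higher and 36.2% as lower in dsfb, so that 45.9% of the calls were rises. That split moved to 60.9% rises with library size as the only scaling, to 57.2% with upper-quartile scaling and to 35.5% with no filter on low counts. The first 2 of these scalings moved all log2 fold changes up, by 0.394 and 0.278 at the median.

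Slc2a3 and Slc2a5 fell steeply in dsfb and Slc2a8 fell about 2.35-fold, while Slc2a1, Slc2a6 and Slc2a12 rose by a like factor. Slc2a4, Slc2a9, Slc2a10 and Slc2a13 did not pass. The 3 rises and 3 falls among 10 members are close to the 30.7% and 36.2% of all genes that did so, and the median log2 fold change was 0.38 over the members against 0.02 over all tested genes. The libraries of the 2 groups did not overlap for 8 of 10 members, against 74.7% of all tested genes. The counts of calls therefore do not set the family apart. Its members differed in the size of the change and in how much of the family's transcript each supplied.

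**Figure D1:**
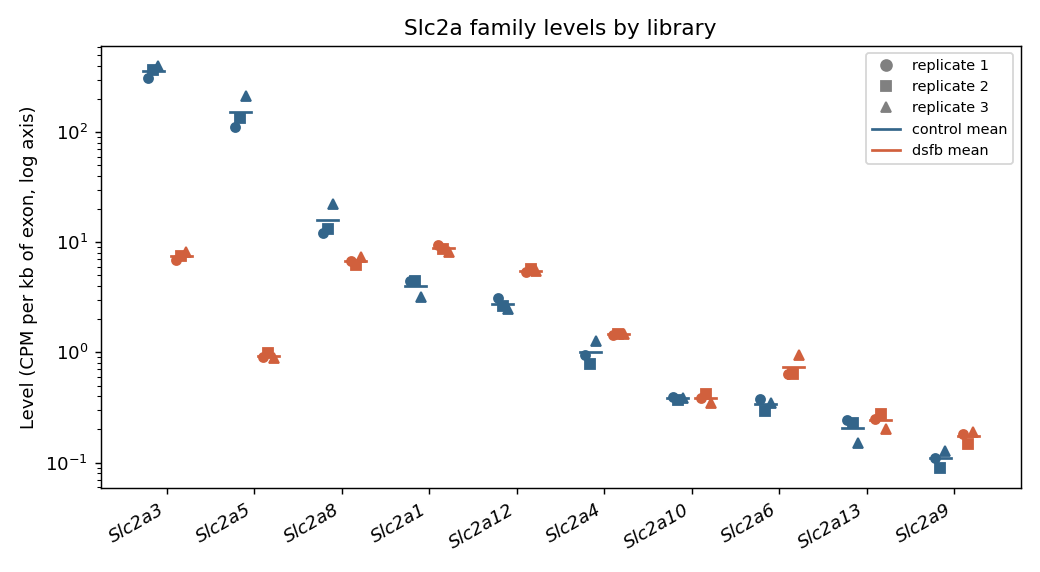
Level of each of the 10 Slc2a genes in every library, in CPM per kb of merged exons on a log axis; blue is control, orange is dsfb, symbols mark the replicate and short lines the group mean. Slc2a3 and Slc2a5 stand above all others in control, at 360 and 153 CPM per kb on average, and at 7.53 and 0.932 in dsfb.

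Slc2a3 encodes GLUT3, a glucose carrier of high affinity that is best known from neurons and is also found in germ cells. The gene (ENSMUSG00000003153) lies on chromosome 6, 122727809 to 122801640, minus strand, in mm10. Control replicates 1, 2 and 3 gave 2268, 2674 and 2890 CPM, whereas dsfb replicates 1, 2 and 3 gave 50.1, 54.2 and 59.3 CPM. Every control library lay far above every dsfb library, and the spread within each group was small beside the gap. The mean fell from 2611 ± 316 to 54.5 ± 4.59 CPM (SD, n = 3), or 47.9-fold (edgeR adjusted p = 2.06e-07), with a log2 value of -5.58 and an SE of 0.15. The dsfb testes retained 2.09% of the control level. In bulk tissue fewer cells of a type and less RNA in each cell cannot be told apart, and this applies to every member. Per kb of exon Slc2a3 ranked 61 in control and 6504 in dsfb among 55227 genes with an annotated length.

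Slc2a5 encodes GLUT5, the fructose carrier of the small intestine and of sperm. It (ENSMUSG00000028976) lies on chromosome 4, 150119283 to 150144169, plus strand. Control replicates 1, 2 and 3 gave 382, 459 and 722 CPM, and the dsfb replicates gave 3.10, 3.38 and 3.02 CPM. Control replicate 3 was 1.72 times the mean of the other controls, while the dsfb libraries were nearly level with each other. The fall was 164-fold (log2 -7.36, SE 0.30, edgeR adjusted p = 9.49e-07), and 0.608% of the control level was left, counted on 56 to 61 reads in each dsfb library. Without control replicate 3 the log2 change was -7.08. This was the largest change among the members, and 4.4% of all tested genes fell further.

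Slc2a8 encodes GLUT8, a carrier held on membranes inside the cell and known for its high level in testis. It (ENSMUSG00000026791) lies on chromosome 2, 32972990 to 32982083, minus strand. Its level was 39.3, 42.5 and 71.3 CPM in control replicates 1, 2 and 3 and 21.8, 19.9 and 23.4 CPM in the dsfb replicates. The groups did not overlap, and control replicate 3 again lay highest, at 1.75 times the mean of the other controls. Slc2a8 fell 2.35-fold (log2 -1.23, SE 0.23, edgeR adjusted p = 0.00229). Without control replicate 3 the log2 change was -0.94 (edgeR adjusted p = 7.7e-08), and 42.5% of the control level was left with all libraries. The 95% intervals of the log2 change were -5.94 to -5.22 for Slc2a3, -8.06 to -6.66 for Slc2a5 and -1.77 to -0.69 for Slc2a8, so the 3 falls were of different size.

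Slc2a1 encodes GLUT1, the carrier of basal glucose uptake in most tissues, including endothelium and Sertoli cells. It (ENSMUSG00000028645) lies on chromosome 4, 119108711 to 119137983, plus strand. Values of 15.5, 15.8 and 11.1 CPM were found in control replicates 1, 2 and 3, against 33.2, 30.8 and 28.6 CPM in dsfb. All dsfb libraries lay above all controls, and control replicate 3 was the lowest of the controls. The rise was 2.18-fold (log2 1.13, SE 0.17, 95% interval 0.73 to 1.53, edgeR adjusted p = 0.000828). Its exons share 105 bases with Gm12868, an antisense gene with 0 reads in the control libraries and a mean of 0.0754 CPM in dsfb.

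Slc2a12 encodes GLUT12, a carrier found in insulin-sensitive tissues. It (ENSMUSG00000037490) lies on chromosome 10, 22645011 to 22704285, plus strand. It was at 13.2, 11.2 and 10.5 CPM in the control replicates and at 22.8, 24.3 and 23.3 CPM in the dsfb replicates, with no overlap. It rose 2.02-fold (log2 1.01, SE 0.15, 95% interval 0.67 to 1.36, edgeR adjusted p = 0.000655). Its 3' end shares 407 exonic bases with Tbpl1, on the opposite strand. Tbpl1, a TATA-box binding protein relative needed in spermatids, fell from 270 ± 29.7 to 44.8 ± 4.23 CPM. No source used here says whether counting used strand, and reads in those bases cannot be assigned to either gene.

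Slc2a6 encodes GLUT6, a carrier of intracellular membranes known from immune cells. It (ENSMUSG00000036067) lies on chromosome 2, 27021363 to 27027998, minus strand. It was near the lower end of detection, at 1.21, 0.950 and 1.11 CPM in the control replicates and at 2.03, 2.07 and 3.02 CPM in the dsfb replicates. These values rest on 23 to 26 reads in each control library and 36 to 56 in each dsfb library. Slc2a6 rose 2.17-fold (log2 1.12, SE 0.28, 95% interval 0.46 to 1.78, edgeR adjusted p = 0.00917). The adjusted p reached 0.0400 with 1 library left out, so the call is the closest to the threshold of the 6.

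**Figure D2:**
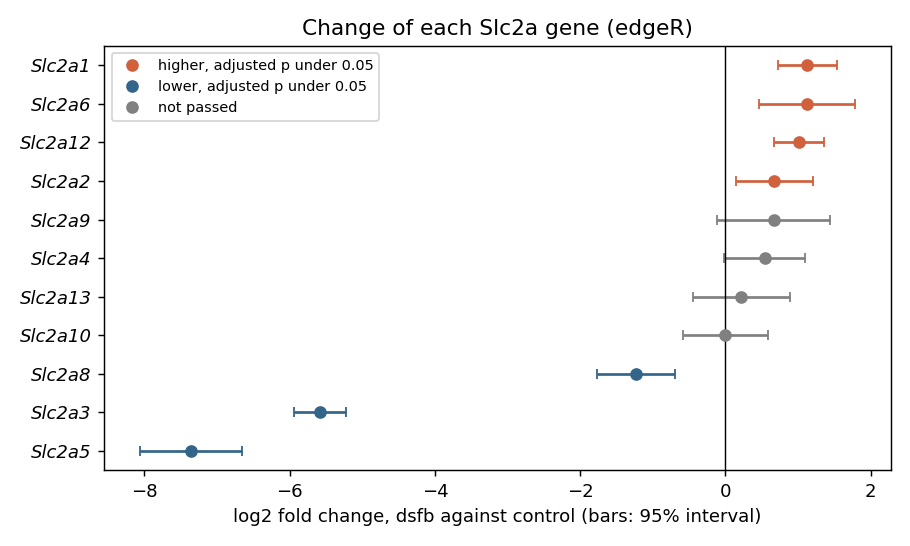
Log2 fold change of dsfb against control for the Slc2a genes that were tested (Slc2a2 included), with bars for the 95% interval; orange marks rises and blue marks falls with an edgeR adjusted p under 0.05, grey the genes that did not pass. Slc2a5, Slc2a3 and Slc2a8 lie at -7.36, -5.58 and -1.23, and the rises lie between 0.67 and 1.13.

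Slc2a4 encodes GLUT4, the insulin-responsive carrier of muscle and fat. It (chromosome 11, 69942539 to 69948188) gave 3.30, 2.73 and 4.45 CPM in control replicates 1, 2 and 3, against 4.98, 5.16 and 5.13 CPM in dsfb. The groups did not overlap, but the controls were uneven and the log2 change of 0.54 (SE 0.24, 95% interval -0.02 to 1.10) did not pass (edgeR adjusted p = 0.0787). Without control replicate 3, the highest of the controls, it was 0.73 and passed (edgeR adjusted p = 0.00818). Slc2a9, the urate carrier gene (chromosome 5, 38349273 to 38503143), ranged over 0.454 to 0.649 CPM in the control libraries and 0.746 to 0.972 CPM in dsfb, on 11 to 18 reads in a library. Its log2 change of 0.66 had a 95% interval of -0.11 to 1.44 (edgeR adjusted p = 0.111). With library size as the only scaling Slc2a4 and Slc2a9 passed as higher (edgeR adjusted p = 0.00796 and 0.0214), and likewise with upper-quartile scaling (0.0155 and 0.0343).

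Slc2a10 encodes GLUT10, whose loss in humans causes arterial tortuosity. It (chromosome 2, 165503787 to 165519917) averaged 1.37 ± 0.0416 CPM in control and 1.37 ± 0.125 CPM in dsfb (SD, n = 3), and the 95% interval of its log2 change ran from -0.59 to 0.58 (edgeR adjusted p = 0.996). Slc2a13, the gene of the proton-coupled myo-inositol carrier (chromosome 15, 91267696 to 91573261), ranged over 1.25 to 2.05 CPM in the control libraries and 1.67 to 2.29 CPM in the dsfb libraries. Its log2 change of 0.22 had an interval of -0.45 to 0.89 (edgeR adjusted p = 0.525). At these depths changes of up to about the upper or lower bound of each interval could not be told from none.

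Outside the member list, Slc2a2, the gene of the low-affinity carrier GLUT2 of liver and pancreatic islets, was at 2.23, 3.06 and 3.15 CPM in control and 4.47, 4.36 and 4.64 CPM in dsfb. It passed as higher (log2 0.67, SE 0.22, edgeR adjusted p = 0.0293), and missed the threshold with RLE scaling (0.0553), with DESeq2 (adjusted p = 0.11), in the unfiltered edgeR fit (adjusted p = 0.121) and without any 1 library other than control replicate 3 (edgeR adjusted p = 0.0599 to 0.109). Slc2a7 had 0 to 4 reads in a library and was not tested.

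Levels of different members were compared per kb of merged exons. In control the order was Slc2a3 (360 ± 43.6 CPM per kb, SD, n = 3), Slc2a5 (153 ± 52.5), Slc2a8 (15.9 ± 5.5), Slc2a1 (4.03 ± 0.755), Slc2a12 (2.74 ± 0.328), Slc2a4 (1.0 ± 0.252), Slc2a10 (0.384 ± 0.0117), Slc2a6 (0.340 ± 0.0409), Slc2a13 (0.207 ± 0.0506) and Slc2a9 (0.109 ± 0.0192). Among these neighbours only Slc2a10 and Slc2a6 overlapped over their libraries, and they changed places when the longest transcript was taken as the length. In dsfb Slc2a1 stood first (8.80 ± 0.664), followed by Slc2a3 (7.53 ± 0.634), Slc2a8 (6.76 ± 0.559) and Slc2a12 (5.54 ± 0.180). The libraries of Slc2a1 and Slc2a3 overlapped, as did those of Slc2a3 and Slc2a8. Slc2a4 (1.46 ± 0.0285), Slc2a5 (0.932 ± 0.0561), Slc2a6 (0.739 ± 0.175), Slc2a10 (0.383 ± 0.0350), Slc2a13 (0.241 ± 0.0377) and Slc2a9 (0.173 ± 0.0231) came after, and of these neighbours only Slc2a5 and Slc2a6 overlapped. Slc2a5 thus went from the second place to the sixth, and Slc2a1 from the fourth to the first.

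Summed over the 10 members, the level was 447, 526 and 641 CPM per kb in control replicates 1, 2 and 3 and 32.3, 32.1 and 33.2 in the dsfb replicates. The control mean was 16.5 times the dsfb mean, or 12.5 times with library size as the only scaling. No test is given for this sum, because the members were chosen with results known. Slc2a3 and Slc2a5 together supplied 95.1%, 95.8% and 95.3% of the sum in the control libraries and 24.2%, 26.4% and 27.3% in the dsfb libraries. Slc2a1 went from 0.780 ± 0.258% to 27.1 ± 2.38% of the sum, Slc2a8 from 2.91 ± 0.497% to 20.8 ± 1.39% and Slc2a12 from 0.528 ± 0.156% to 17.0 ± 0.712% (SD, n = 3). The share of Slc2a8 grew although its own level fell. Without Slc2a3 and Slc2a5, a subset set apart after the values were seen, the remaining 8 members summed to 24.7 ± 4.70 CPM per kb in control and 24.1 ± 0.430 in dsfb.

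**Figure D3:**
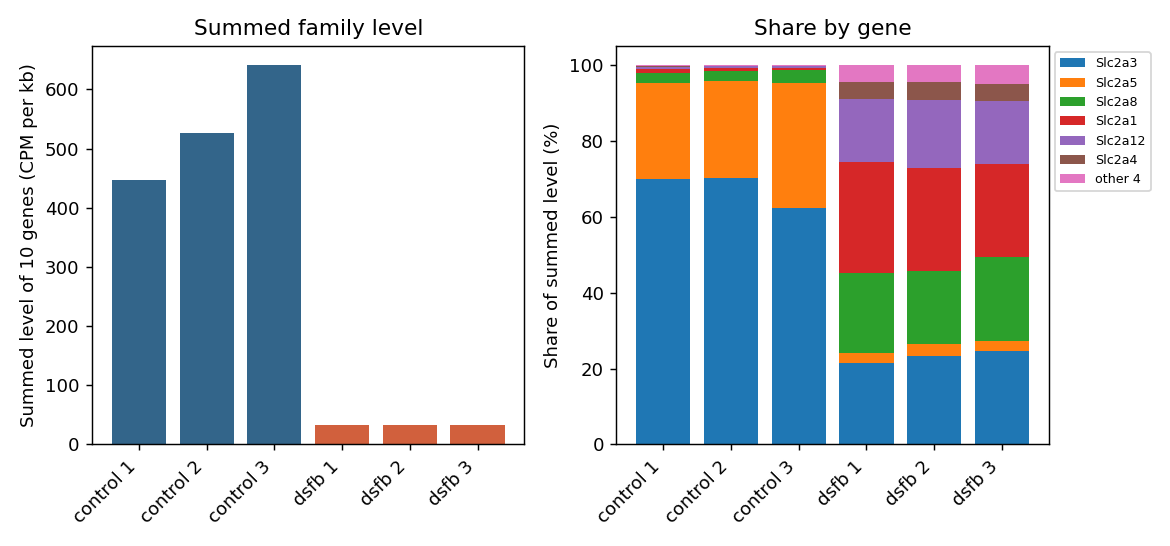
Left, summed level of the 10 Slc2a genes in each library in CPM per kb of exon (blue control, orange dsfb). Right, the percentage of that sum supplied by each gene; Slc2a3 and Slc2a5 make up 95.1 to 95.8% in control and 24.2 to 27.3% in dsfb.

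The ratios between members per kb also differed between the groups. Slc2a3 was 2.79, 2.73 and 1.88 times Slc2a5 per kb in control replicates 1, 2 and 3 and 7.60, 7.51 and 9.21 times in the dsfb replicates. Slc2a8 stood to Slc2a5 at 0.104 ± 0.00561 in control, with control replicate 3 (0.105) between the other two, and at 7.30 ± 1.01 in dsfb (SD, n = 3). Slc2a5 and Slc2a8 were both highest in control replicate 3, by nearly the same factor, and their ratio there did not stand out. Slc2a3 was 93.0 ± 29.4 times Slc2a1 in control and 0.862 ± 0.137 times in dsfb.

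The start-site windows of 4 members are shown because the members that fell (Slc2a5, Slc2a8) and those that rose (Slc2a1, Slc2a12) can be set side by side. RefSeq windows were matched for 8 of 10 members, all except Slc2a3 and Slc2a4. Each sequence is the 250 bases before the RefSeq start site on GRCm38.p6, read 5′ to 3′ on the gene's own strand. Bases inside the GENCODE gene were left off, which took 61 from Slc2a5 and 34 from Slc2a1. Capitals mark a MYB core (AACTG or its reverse complement CAGTT) or an RFX half-site (GTTGCC or GGCAAC), motifs of the MYB and RFX families to which regulators of meiotic and postmeiotic genes belong.
Slc2a5, chr4:150119094-150119282, plus strand: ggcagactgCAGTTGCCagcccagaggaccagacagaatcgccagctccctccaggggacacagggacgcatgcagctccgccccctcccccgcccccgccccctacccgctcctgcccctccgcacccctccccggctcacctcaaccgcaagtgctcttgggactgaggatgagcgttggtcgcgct
Slc2a8, chr2:32982084-32982333, minus strand: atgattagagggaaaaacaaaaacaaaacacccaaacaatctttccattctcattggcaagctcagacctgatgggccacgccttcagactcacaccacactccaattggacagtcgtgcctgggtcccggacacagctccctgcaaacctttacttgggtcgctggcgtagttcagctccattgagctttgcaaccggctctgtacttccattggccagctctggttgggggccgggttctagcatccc
Slc2a1, chr4:119108495-119108710, plus strand: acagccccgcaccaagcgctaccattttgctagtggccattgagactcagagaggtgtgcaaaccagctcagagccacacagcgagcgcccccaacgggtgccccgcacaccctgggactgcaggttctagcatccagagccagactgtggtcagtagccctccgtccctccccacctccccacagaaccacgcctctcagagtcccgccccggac
Slc2a12, chr10:22644761-22645010, plus strand: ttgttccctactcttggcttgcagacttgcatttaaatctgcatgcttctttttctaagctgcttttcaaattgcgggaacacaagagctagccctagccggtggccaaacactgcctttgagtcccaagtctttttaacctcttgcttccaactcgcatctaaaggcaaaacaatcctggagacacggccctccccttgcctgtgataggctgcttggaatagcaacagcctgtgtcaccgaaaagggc

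The full window of Slc2a5 held 2 MYB cores, 1 of them overlapping an RFX half-site in the run shown in capitals, and 3 GC boxes (GGGCGG or CCGCCC). Over all 32817 RefSeq windows of that length, 39.1% held a MYB core, 10.4% an RFX half-site and 32.7% a GC box, so such matches are common. The windows of Slc2a8, Slc2a1, Slc2a12, Slc2a6 and Slc2a13 held none of the first 2 motifs. Those of Slc2a9 and Slc2a10, members that did not pass, held 1 MYB core each and no RFX half-site. That of Slc2a8 held 4 CCAAT boxes (CCAAT or ATTGG, in 33.8% of windows) and that of Slc2a1 held 2 GC boxes. That of Slc2a6 held 2 CCAAT boxes and 1 GC box. The cAMP response element TGACGTCA, found in 1.55% of windows, was in none of the 8. GC content was 66.4% for both Slc2a5 and Slc2a1, 65.2% for Slc2a6, 52.8% for Slc2a8 and 48.8% for Slc2a12, against a median of 52.4%. Base composition thus did not separate the members that fell from those that rose, and a match to these letters is not a site of binding.

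Marker lists of testis cell types moved in the same libraries. The spermatocyte list for mid and late pachytene had 12 genes tested and 12 falls, against 36.2% falls over all tested genes. Its median was -7.52 on the log2 scale, and its summed level was 8918 to 12090 CPM in control and 355 to 391 CPM in dsfb. Crisp2, a secretory protein of the sperm head, fell from 1154 ± 119 to 5.06 ± 0.611 CPM and Spag6l, of the flagellar axoneme, from 484 ± 46.6 to 6.17 ± 1.03 CPM. All 13 tested spermatid markers fell too (median -6.35), from a summed 220 to 1176 CPM to 17.3 to 19.3 CPM, with Tex21 at 0 reads in dsfb; without control replicate 3 the median was -3.62 over 11 tested. Only 7 spermatid markers fell with DESeq2 and 4 with limma-voom. Log2 changes of the pachytene markers ran from -12.45 (Adam3) to -1.15 (Mybl1), a range that holds the falls of Slc2a3, Slc2a5 and, near its weak end, Slc2a8. The part of such cells in the falls of the Slc2a genes was not tested.

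Of 16 Sertoli cell markers 15 rose (median 1.0), against 30.7% of all tested genes. Their summed level was 2850 to 3724 CPM in control and 6566 to 6874 CPM in dsfb. Cldn11, a tight junction gene, rose 2.29-fold and the transcription factor gene Gata4 2.08-fold. The rises of Slc2a1, Slc2a6 and Slc2a12 (log2 1.13, 1.12 and 1.01) were thus about as large as that median. Other somatic lists had medians of 0.56 (Leydig cells, 4 of 8 rose), 0.96 (peritubular myoid cells, 4 of 6), 0.66 (endothelium, 4 of 9) and 0.81 (macrophages, 6 of 9). Their summed levels were 254 to 461 and 357 to 633 CPM, 200 to 312 and 373 to 501 CPM, 36.7 to 40.9 and 55.6 to 64.1 CPM, and 137 to 187 and 237 to 327 CPM, in control and dsfb in that order. The counts of rises are to be read beside the 30.7% of all tested genes that rose, and several of them moved with 1 library. Rises among Leydig markers numbered 1 or 2 without any 1 library other than control replicate 3 and 7 without that one or with library-size-only scaling. Rises among endothelial markers numbered 2 without control replicate 2 or dsfb replicate 1, and among macrophage markers 3 without control replicate 2 or dsfb replicate 3.

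Of 12 spermatogonia markers 10 rose (median 0.75), against 30.7% of all tested genes. Their summed level was 298 to 428 CPM in control and 638 to 712 CPM in dsfb. Leptotene to early pachytene markers were mixed, with 3 rises and 3 falls of 10 (median -0.57, summed 1642 to 3061 CPM in control and 1674 to 1850 CPM in dsfb). Those counts are close to the 30.7% of rises and 36.2% of falls over all tested genes. Without control replicate 3 that list had 7 falls, and 1 without control replicate 1 or 2 or dsfb replicate 1 or 3. Falls numbered 5 or 6 with RLE scaling, DESeq2, no filter or the replicate block, and 1 with upper-quartile or library-size-only scaling. Erythroid markers were uneven within both groups, at a summed 23.6 to 225 CPM in control and 45 to 336 CPM in dsfb. Their median in control replicate 3 stood at -3.19 log2 units relative to the mean of control replicates 1 and 2. It was low in dsfb replicate 3 too, at -0.69 relative to the control mean, against 1.62 and 1.66 in dsfb replicates 1 and 2. With the replicate block 4 of the 7 tested erythroid markers rose. Slc2a1 was lowest among the controls in control replicate 3, at 0.708 times the mean of the other controls. Without that library its log2 change was 0.95 (edgeR adjusted p = 2.74e-07). In control replicate 3 the list medians relative to control replicates 1 and 2 were -0.45 for spermatogonia, -0.31 for Sertoli and -0.22 for peritubular myoid markers. They were 0.01 for endothelial, 0.19 for macrophage and 0.41 for Leydig markers. The part of somatic cells, spermatogonia and blood in the rises was not tested.

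**Figure D4:**
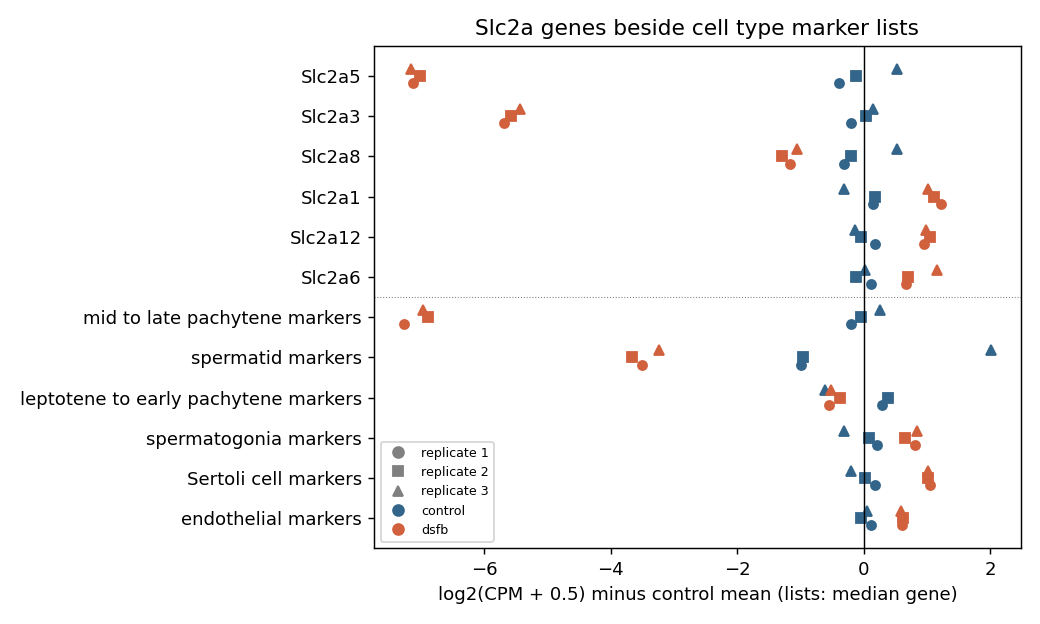
Deviation of each library from the control mean, as log2(CPM + 0.5), for the 6 Slc2a genes that passed the test and, under the dotted line, for the median gene of 6 marker lists; blue is control, orange dsfb, symbols mark the replicate. In dsfb Slc2a5 and Slc2a3 lie at -7.16 to -5.44, Slc2a8 at -1.29 to -1.05, Slc2a1 and Slc2a12 at 0.95 to 1.22 and Slc2a6 at 0.67 to 1.15. Mid to late pachytene markers lie at -7.27 to -6.88, spermatid markers at -3.66 to -3.24 and leptotene to early pachytene markers at -0.55 to -0.37. Sertoli markers lie at 1.02 to 1.05, spermatogonia markers at 0.65 to 0.84 and endothelial markers at 0.58 to 0.62.

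Genes that act on the sugars after entry moved in both directions. Of 6 tested genes of glucose phosphorylation 2 rose and 2 fell (median 0.26). These counts are close to the 30.7% of rises and 36.2% of falls over all tested genes and do not set the list apart. Hk1, a hexokinase gene with a transcript specific to male germ cells, gave 141, 147 and 486 CPM in control replicates 1, 2 and 3, against 32.5, 31.3 and 33.7 CPM in dsfb. It fell 7.93-fold (log2 -2.99, SE 0.49, edgeR adjusted p = 0.00119), and its log2 change was -2.17 without control replicate 3, which held most of the control level. Hk2, the hexokinase gene of muscle and growing cells, rose 2.25-fold from 87.1 ± 10.4 to 196 ± 15.8 CPM (edgeR adjusted p = 7.82e-05). G6pc3 fell (log2 -1.52) and Adpgk rose (0.78).

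Among 6 tested genes of fructose and polyol handling 3 rose and 2 fell (median 0.24), and the falls were the larger changes. Over all tested genes 30.7% rose and 36.2% fell, and the number of falls in the list is near that share. Sord, whose enzyme turns sorbitol into fructose, fell from 979 ± 274 to 71.3 ± 6.12 CPM (13.7-fold, edgeR adjusted p = 4.97e-06). Tkfc, which acts on the products of fructose cleavage, fell from 255 ± 48.6 to 29.8 ± 0.633 CPM (8.56-fold). Khk, the ketohexokinase that starts fructose breakdown, rose 2.07-fold from 5.71 ± 0.638 to 11.8 ± 0.217 CPM. Akr1b8, an aldo-keto reductase gene, rose as well (log2 0.95). Sord, Tkfc and Slc2a5 were each highest in control replicate 3 among the controls.

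All 9 genes of lactate handling passed, 5 as higher and 4 as lower (median 0.71). Over all tested genes 66.9% passed, 30.7% as higher and 36.2% as lower. Ldhc and Ldha, lactate dehydrogenase genes of germ cells and of most tissues, fell 267-fold and 23.0-fold, and Slc16a7, the gene of the lactate carrier MCT2, fell 57.8-fold from 137 ± 72.0 to 2.36 ± 0.582 CPM. Without control replicate 3 the log2 change of Slc16a7 was -5.37, against -5.85 with all libraries. Ldhb rose from 246 ± 32.7 to 489 ± 32.2 CPM. The list thus held a steep fall of some isoforms and a rise of near 2-fold in others, as the GLUT genes did.

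Of 17 tested genes listed for the control of GLUT traffic or abundance 12 rose and 3 fell (median 0.62). The rises include Slc2a4rg-ps, which is annotated as a transcribed pseudogene (log2 0.89). The counts of this list and of those that follow are to be read beside 30.7% rises and 36.2% falls over all tested genes. Mlxipl, which encodes the glucose-responsive factor ChREBP, rose from 24.0 ± 1.62 to 79.2 ± 2.37 CPM. Stx4a, a syntaxin gene with a part in GLUT4 traffic to the surface, rose from 24.0 ± 4.37 to 52.3 ± 3.77 CPM. Tbc1d1, a brake on that traffic, fell from 349 ± 12.6 to 123 ± 6.04 CPM and Aspscr1, which holds GLUT4 inside the cell, from 112 ± 19.3 to 43.0 ± 3.13 CPM. Brakes did not move together: Tbc1d4, a paralog of Tbc1d1, rose 2.24-fold, and Txnip and Arrdc4, arrestin-like genes whose products lower glucose uptake, rose 2.13-fold and 2.14-fold. Of 9 genes of insulin and insulin-like receptors and their relay 6 rose (median 0.80), among them Akt1, Insr, Igf1r and Irs2 with log2 changes of 1.0, 0.92, 0.96 and 0.90; without control replicate 3 the list had 7 rises and 2 falls. Among 9 hypoxia and growth regulators 5 rose and 1 fell (median 0.75). Egln1, an oxygen sensor, Epas1 and Hif1a rose (log2 1.21, 0.94 and 0.86) and Prkaa1, a subunit of the energy sensor AMPK, fell (-1.05). The rises in that list numbered 3 without control replicate 2 or dsfb replicate 1 or 2, with DESeq2 or with no filter, and 8 with upper-quartile or library-size-only scaling.

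Other sugar carriers were scarce. Of 5 tested genes (Slc2a2 among them) 3 rose and 1 fell (median 0.67), and rises numbered 1 without control replicate 1 or 2 or dsfb replicate 1, with 3 falls without control replicate 2. With DESeq2 or with no filter the list had 1 rise and 2 falls. Slc50a1, of the SWEET family, rose from 6.02 ± 0.945 to 12.4 ± 0.712 CPM (edgeR adjusted p = 0.00214), and Slc5a9, a sodium-coupled carrier gene, fell from 1.40 ± 0.443 to 0.305 ± 0.111 CPM (0.00263). Slc5a10 passed as higher (edgeR adjusted p = 0.0213), and not with DESeq2 (adjusted p = 0.124) nor in edgeR once low counts were kept (adjusted p = 0.0898) or without control replicate 1 or 2 or dsfb replicate 1 or 2 (0.0512 to 0.0888). In vitamin C handling, since GLUT1 and GLUT3 also carry its oxidised form, 3 of 5 genes rose and 1 fell (median 0.73). Gsto2, a dehydroascorbate reductase, fell from 132 ± 28.1 to 8.44 ± 0.512 CPM, while Slc23a2 rose (log2 1.05). In myo-inositol handling 1 of 4 rose, Slc5a3 (log2 0.84, edgeR adjusted p = 0.00549). That list also had 1 fall without control replicate 1 or 3, with RLE scaling, with DESeq2 or with no filter. It had 2 rises with upper-quartile or library-size-only scaling. In urate handling 1 of 2 rose, Xdh (1.21, edgeR adjusted p = 0.0029). The urate list had 2 rises without control replicate 3 and with upper-quartile or library-size-only scaling. It had 1 fall without any 1 dsfb replicate, with DESeq2 or with no filter. The lists of this paragraph hold 2 to 5 tested genes, and over all tested genes 30.7% rose and 36.2% fell. Counts from so few genes do not set a list apart.

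The genes whose pattern over the 6 libraries was most like that of each member were read from 6-point correlations of log2(CPM + 0.5), which rest mainly on the step between the groups. For Slc2a3 they were Kcnj9 and Mroh8, for Slc2a5 Ccdc171 and Bex6, and for Slc2a8 Ndst3 and Nop14. For Slc2a1 they were Mboat2 and Klhl22, for Slc2a12 Prune1 and P3h1, and for Slc2a6 Gper1 and Tbx1, with Pearson's r of at least 0.9986. At the looser bound of r over 0.99, the number of genes among 14230 searched differed between members. It was 1589 for Slc2a5, 1477 for Slc2a3, 460 for Slc2a12, 343 for Slc2a1, 216 for Slc2a8 and 25 for Slc2a6. Mroh8 fell 50.7-fold, close to the 47.9-fold of Slc2a3, while Ccdc171 fell 4.91-fold against 164-fold for Slc2a5, so a like pattern was not a like size.

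The nearest tested protein-coding gene on either side of each member was read, a choice made after the members' values were known. Some of these genes moved as the member did, and others moved the other way or did not pass. Over all tested genes 30.7% rose and 36.2% fell. Slc2a5 has Gpr157 at 13356 bases, which rose 2.22-fold, and Eno1 at 92552 bases on its other side, with a log2 change of 0.06 (edgeR adjusted p = 0.675). Foxj2, 18274 bases from Slc2a3, rose 1.72-fold. Slc2a8 lies between Rpl12, which fell by 0.27 on the log2 scale, and Garnl3, which rose by 0.42. Cacfd1, 274 bases from Slc2a6, rose as Slc2a6 did (log2 0.44, edgeR adjusted p = 0.0297). Adamtsl2, on the other side of Slc2a6, did not pass (log2 0.52, edgeR adjusted p = 0.137). Zfp691, 31530 bases from Slc2a1, fell (log2 -1.34, edgeR adjusted p = 0.00675), and Olfr1330, on the other side of Slc2a1, did not pass. Slc2a4, which did not pass, lies 934 bases from Ybx2, a gene of germ cell RNA storage that fell from 1775 ± 446 to 208 ± 16.5 CPM. Slc2a12, as given above, overlaps Tbpl1, which fell.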

How the data were processed

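Polyadenylated RNA was prepared from testes with TRIzol and a NEBNext Ultra kit, per the labels' protocols. The authors deposited raw counts of reads per gene for 6 libraries, unit counts. Alignment was with STAR 2.6.0 to mm10, per the submitters' processing notes; no source used here names the counting tool, its annotation or its use of strand. Symbols, positions and exon lengths came from GENCODE M21, which held 55227 of the identifiers and lacked 260.

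The whole table was fitted with edgeR 4.0.16 in R 4.3.3 (filterByExpr, TMM, glmQLFit, glmQLFTest, group as the only term) and adjusted by Benjamini-Hochberg over all tested genes at 0.05. Each SE was derived from the F statistic and its log2 fold change, and 95% intervals use the fit's degrees of freedom. RLE, upper-quartile and library-size scaling, 2 other filters, DESeq2 1.42.0, limma 3.58.1 (voom), a replicate block and leaving out each library were tried. The fit was tested first on simulated data in which a small part of the genes changed, as many up as down. That check does not cover data in which 66.9% of tested genes passed, as here. Members and gene lists were chosen with earlier results of these data known. Named genes are the members, up to 4 per pathway list and up to 2 per marker list with the smallest p, and for each member that passed the 2 most correlated genes with a mean of at least 1 CPM; others were named after their values were seen. No replicates looked like 1 library deposited more than once: chi-square per degree of freedom ran from 4.09 to 74.1 between pairs. No test of the summed family level is given.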

Additional observations from a re-analysis of the deposited data

How the results depend on the processing

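The falls of Slc2a3, Slc2a5 and Slc2a8 and the rises of Slc2a1, Slc2a6 and Slc2a12 kept their direction and stayed past the threshold in all 14 alternative fits. The number of members that rose was 5 instead of 3 with upper-quartile and with library-size-only scaling, which added Slc2a4 and Slc2a9, and 4 without control replicate 3, which added Slc2a4. The log2 change of Slc2a10, which did not pass in any fit, turned to 0.28 with upper-quartile and 0.39 with library-size-only scaling, and ranged from -0.0583 to 0.078 with 1 library left out. Slc2a9 was not tested with a mean of at least 1 CPM. The cause of these shifts was not tested. The longest transcript in place of merged exons moved 9 of 20 mean levels per kb by more than their SD. Same-numbered libraries deviated together only weakly (r = 0.0709, 0.0607 and 0.116), so the numbers were not taken to pair animals, although every library correlated best with its own number and both libraries numbered 3 were low in erythroid markers. With the replicate block 13431 genes passed instead of 13256, and 3 members rose and 3 fell as before. Depth limits Slc2a6, Slc2a9, Slc2a10 and Slc2a13, with fewer than 60 reads in every library.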
